A study of Mus musculus with 9 samples.

Results

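Cst9, Cst12, Rhox5, Rhox8, Defb36, Aard, Trf and Clu are 8 genes that are known from Sertoli cells, the somatic supporting cells of the testis, and they were followed here in the mouse ovary. They were taken from the arrays by gene symbol, and every probe carrying one of the 8 symbols was used. Of the 8 genes, 7 had a probe, with 8 probes in all because Defb36 had a pair, among 19057 named genes on the arrays. All 7 entered the fit of 13872 features, and Clu, the gene of the secreted chaperone clusterin, was not analysed here. Total RNA of C57BL/6 ovaries was hybridised to Illumina expression arrays in 3 groups. The controls were wild type (WT), the second group (POF) modelled premature ovarian failure, and the third (SSCTR) had received a transplant of spermatogonial stem cells, the germline stem cells of the testis. Each group had 2 measured arrays, replicates 2 and 3, since the deposited replicate 1 of every group is computed from them. The labels do not say how ovarian failure was brought about, whether the recipients had it before the transplant, how old the mice were, or whether RNA of several mice was pooled. They do not say either that replicates are separate animals, so the p-values measure only the spread between these arrays, which may be technical.

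Sertoli cells of the testis and granulosa cells of the ovary arise from the same supporting cell lineage of the early gonad, and each surrounds and feeds the germ cells of its own sex. Sertoli cells secrete carrier proteins such as transferrin and clusterin, which move iron and lipids across the closed epithelium. They also make cystatin-type protease inhibitors and beta-defensins, and they express homeobox genes of the X-linked Rhox cluster, of which Rhox5 responds to androgen. Several of these genes, Rhox5 and Rhox8 among them, are also known from mouse granulosa cells, so RNA of these genes in an ovary does not by itself name a Sertoli cell.

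On the 6 arrays 16040 to 18041 probes were above background, meaning a detection p-value under 0.05. Across genes, which are not independent replicates, log2 values of arrays of 1 group correlated at 0.988 to 0.989 and those of different groups at 0.957 to 0.979. The ovary was recognisable by its own markers: Foxl2, the transcription factor of granulosa cells, and the egg coat gene Zp3 were above background on 6 of 6 arrays. Of the 16 testis-type Sertoli genes measured beside the 8, Sox9, Dhh, Gdnf, Cldn11, Shbg and Aldh1a1 were above background on all 6 arrays, while Dmrt1 was above it on 1 POF array and Gata1 on 1 WT array. Sry, the testis-determining gene of the Y chromosome, was above background on none. In whole tissue a lower signal can mean fewer cells of a type or less RNA per cell, and the arrays cannot tell these apart.

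The 7 measured genes did not move as a block. Cst9, Cst12, Defb36 and Aard were highest in SSCTR, and Rhox5, Rhox8 and Trf were highest in POF. Each gene is counted here by its brightest probe, and the second Defb36 probe was not highest in SSCTR. All 7 passed the threshold of an adjusted p under 0.05 between SSCTR and POF, 4 higher and 3 lower in SSCTR, where 12.6% of all features passed (5.33% higher and 7.25% lower). Between SSCTR and WT 5 of 7 passed, 4 higher and 1 lower in SSCTR, against 3.31% of all features (1.81% higher and 1.50% lower). Between POF and WT 4 of 7 passed, all 4 higher in POF, against 11.9% of all features (6.98% higher and 4.96% lower). The median log2 change of the 7 genes was 1.24 in SSCTR against WT, 0.91 in POF against WT and 1.18 in SSCTR against POF, beside medians of -0.01, -0.03 and 0.03 over all features. All 3 comparisons draw on the same 6 arrays, and each pair of comparisons shares a group. The genes were chosen with earlier results of these data known, so counts above the shares may reflect that choice. They are given as a description only.

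**Figure D1:**
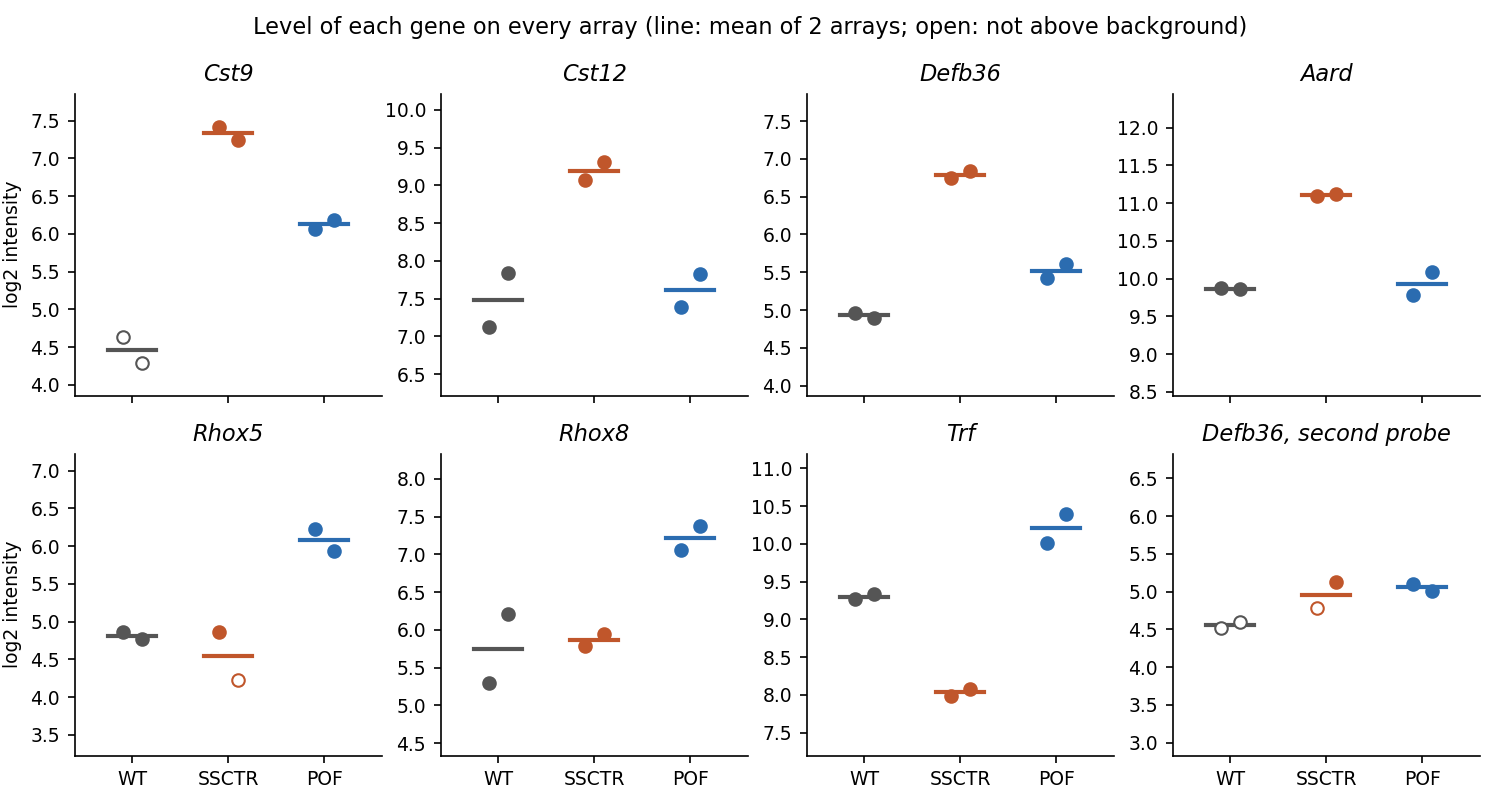
Log2 intensity after background correction and normalisation (vertical axis, the same span in every panel) of the 7 measured genes and of the second Defb36 probe on the 2 arrays of each group (horizontal axis); points are arrays, lines are means, and open points are not above background. Cst9, Cst12, Aard and the brighter Defb36 probe peak in SSCTR, with Aard at 11.11 there. Rhox5, Rhox8 and Trf peak in POF, with Trf at 10.21 there. The second Defb36 probe has means of 4.96 in SSCTR and 5.06 in POF.

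The cystatin-type genes were both higher in SSCTR than in either other group. Cst9 encodes testatin, a cystatin-related protein first known from the pre-Sertoli cells of the fetal mouse testis. Its deposited intensities were 103 and 90.7 in WT, 251 and 231 in SSCTR, and 146 and 152 in POF. Neither WT array was above background, while all 4 others were, and the 3 groups did not overlap. On the log2 scale Cst9 stood at 4.47 ± 0.24 in WT, 7.33 ± 0.13 in SSCTR and 6.13 ± 0.08 in POF (SD, n = 2). It was at least 6.09-fold higher in SSCTR than in WT (adjusted p = 0.000274), the bound being set by the dimmest signal that still counts as above background. It was also at least 2.64-fold higher in POF than in WT (adjusted p = 0.000953) and 2.31-fold higher in SSCTR than in POF (log2 change 1.21 ± 0.19 SE, adjusted p = 0.00382). The SSCTR rise over WT was the rank 7 change among all 13872 features ordered from the highest. That rank uses the fitted log2 change of 2.87, with WT below background, and depends on the background correction. Without correction Cst12, at rank 41 in the main fit, was at 1.35 and Cst9 at 1.32. Each of these 3 calls held without any 1 of the 6 arrays.

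Cst12 encodes another secreted protein of the cystatin family. Its intensities were 219 and 309 in WT, 616 and 713 in SSCTR, and 247 and 307 in POF, so that both SSCTR arrays lay above the 4 others and WT and POF overlapped. Cst12 was 3.26-fold higher in SSCTR than in WT (9.19 ± 0.17 against 7.49 ± 0.51, SD, n = 2; adjusted p = 0.0126) and 2.98-fold higher than in POF (7.61 ± 0.31; adjusted p = 0.00562). The difference between POF and WT was 0.13 with a 95% interval of -0.48 to 0.73 (adjusted p = 0.815), an interval that covers rises and falls. The call against WT was lost without WT replicate 2 (adjusted p = 0.0784), SSCTR replicate 2 (0.0558) or SSCTR replicate 3 (0.0882), and the call against POF without POF replicate 2 (0.0557). Without POF replicate 3 the difference between POF and WT was -0.094, and without WT replicate 2 it was -0.23.

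Defb36, a gene of the beta-defensin family of small antimicrobial peptides, followed the order of Cst9. The intensities of its brighter probe were 110.1 and 109 in WT, 187 and 193 in SSCTR, and 122 and 128 in POF. All 6 arrays were above background, though WT only narrowly, and the 3 groups did not overlap. The gene was 3.64-fold higher in SSCTR than in WT (6.79 ± 0.06 against 4.93 ± 0.05, SD, n = 2; adjusted p = 0.000961) and 2.43-fold higher than in POF (5.52 ± 0.13; adjusted p = 0.00170). POF differed from WT by 0.59 with an adjusted p of 0.0559, which missed the threshold. Both calls held without any 1 array. The second Defb36 probe did not show this pattern: its intensities were 99.5 and 101.7 in WT, 106 and 114 in SSCTR, and 113 and 111 in POF. That probe was above background on neither WT array and on 1 of 2 SSCTR arrays. Its log2 changes were 0.40 in SSCTR against WT (adjusted p = 0.350) and -0.10 in SSCTR against POF (adjusted p = 0.806), both taken from a fit of all probes.

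Aard, named for its alanine- and arginine-rich domain, was far above background on all 6 arrays. Its intensities were 1014 and 1013 in WT, 2258 and 2313 in SSCTR, and 956 and 1164 in POF. The SSCTR arrays lay above all others, and the POF arrays lay on either side of the WT arrays. Aard was 2.36-fold higher in SSCTR than in WT (11.11 ± 0.03 against 9.87 ± 0.00, SD, n = 2; adjusted p = 0.00821) and 2.26-fold higher than in POF (9.93 ± 0.22; adjusted p = 0.00326). Between POF and WT the change was 0.06 with a 95% interval of -0.34 to 0.46 (adjusted p = 0.869), and without POF replicate 3 it was -0.092. The change against WT stayed between 1.22 and 1.26 without any 1 array, but its call was lost without WT replicate 2 (adjusted p = 0.0685), WT replicate 3 (0.0602), SSCTR replicate 2 (0.0563) or SSCTR replicate 3 (0.0628), where 1 group is left with 1 array. The call against POF held in all 6 cases.

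The homeobox genes Rhox5 and Rhox8 went the other way and were higher in POF than in both other groups. Rhox5, once called Pem, is a transcription factor gene that androgen switches on in Sertoli cells. Its intensities were 108 and 106 in WT, 108 and 86.0 in SSCTR, and 154 and 140.4 in POF. Both POF arrays lay above the 4 others, and WT and SSCTR overlapped near background, with 1 of 2 SSCTR arrays below it. Rhox5 was 2.40-fold higher in POF than in WT (6.08 ± 0.20 against 4.82 ± 0.06, SD, n = 2; adjusted p = 0.00952) and at least 2.32-fold higher in POF than in SSCTR (4.54 ± 0.45; adjusted p = 0.00334). The call against WT was lost without WT replicate 2 (adjusted p = 0.0511), WT replicate 3 (0.0585) or POF replicate 2 (0.0769), and the call against SSCTR held without any 1 array. SSCTR differed from WT by -0.27 with a 95% interval of -0.80 to 0.25 (adjusted p = 0.603), and by 0.042 without SSCTR replicate 3.

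Rhox8, known from Sertoli and granulosa cells of the mouse, had intensities of 118 and 153 in WT, 134 and 141 in SSCTR, and 213 and 245 in POF. All 6 arrays were above background, POF lay above the rest, and both SSCTR values fell between the WT values. The gene was 2.76-fold higher in POF than in WT (7.22 ± 0.22 against 5.75 ± 0.65, SD, n = 2; adjusted p = 0.0128) and 2.56-fold higher in POF than in SSCTR (5.87 ± 0.11; adjusted p = 0.0163). The call against WT was lost without WT replicate 2 (adjusted p = 0.0561), POF replicate 2 (0.0543) or POF replicate 3 (0.102). The call of SSCTR against POF was lost without SSCTR replicate 2 (adjusted p = 0.0776), SSCTR replicate 3 (0.0577), POF replicate 2 (0.0613) or POF replicate 3 (0.123). SSCTR differed from WT by 0.11 with a 95% interval of -0.54 to 0.76 (adjusted p = 0.892), and by -0.35 without WT replicate 2.

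Trf encodes transferrin, the iron carrier of blood plasma, which Sertoli cells also secrete to supply germ cells. It was the 1 gene of the 7 that passed the threshold both as lower in SSCTR than in WT and as higher in POF than in WT. Its intensities were 694 and 725 in WT, 333 and 350.0 in SSCTR, and 1115 and 1429.6 in POF, and the 3 groups did not overlap. Trf was 2.40-fold lower in SSCTR than in WT (8.04 ± 0.06 against 9.30 ± 0.05, SD, n = 2; adjusted p = 0.00988), 1.88-fold higher in POF than in WT (10.21 ± 0.27; adjusted p = 0.0157), and 4.51-fold lower in SSCTR than in POF (log2 change -2.17 ± 0.19 SE, adjusted p = 0.000181). The last call held without any 1 array. The call of SSCTR against WT was lost without WT replicate 2 (adjusted p = 0.0694), WT replicate 3 (0.0727), SSCTR replicate 2 (0.0681) or SSCTR replicate 3 (0.0587). That of POF against WT was lost without WT replicate 2 (adjusted p = 0.0893), WT replicate 3 (0.0676) or POF replicate 3 (0.1003).

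**Figure D2:**
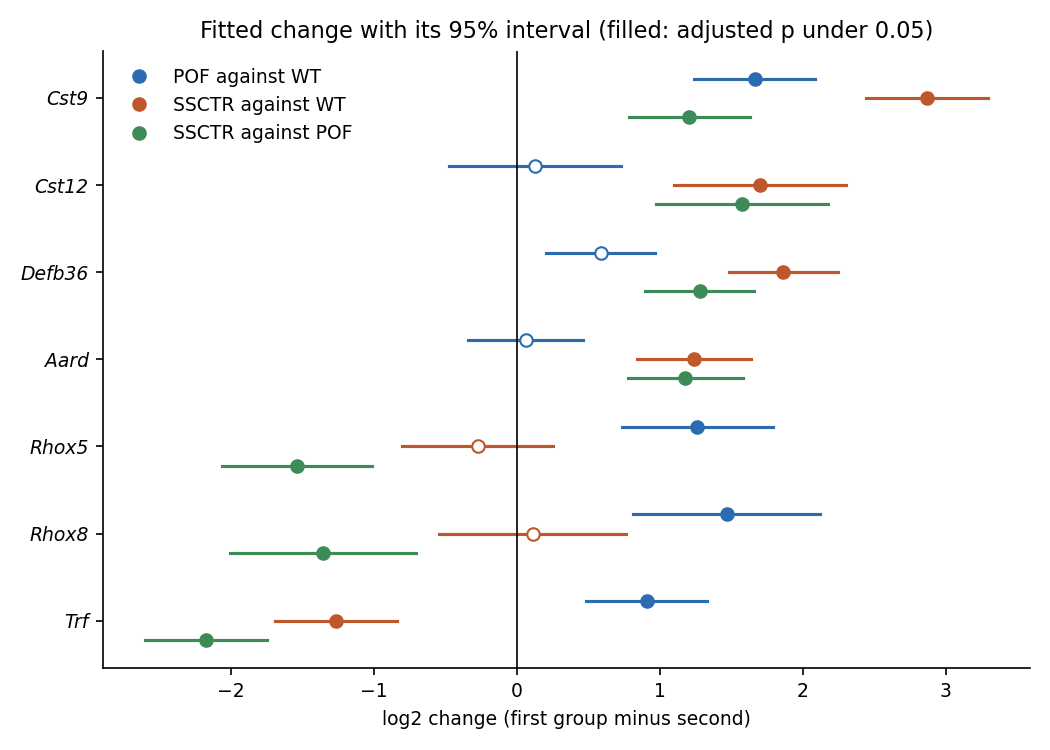
Fitted log2 change (horizontal axis, first group minus second) of each gene in the 3 comparisons, with the 95% interval of the moderated fit as a line; filled points have an adjusted p under 0.05. The 3 genes at the bottom have negative changes in SSCTR against POF, down to -2.17 for Trf, and the 4 at the top have positive ones, up to 1.58 for Cst12.

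The size of these changes depends on the background correction. As plain ratios of the deposited mean intensities, SSCTR over WT was 2.49 for Cst9, 2.52 for Cst12, 1.74 for Defb36 and 2.26 for Aard. POF over WT was 1.38 for Rhox5, 1.69 for Rhox8 and 1.79 for Trf. The deposited ratio was the smaller one for each of these, by little for Aard and by more for Cst9, Defb36, Rhox5 and Rhox8. For Trf the ratio was 0.481 in SSCTR over WT and 0.269 in SSCTR over POF. The calls of all 7 genes were the same without background correction and with the authors' normalised values. The bounds given as "at least" hold only under the correction used here. For Cst9 in SSCTR against WT the bound was 2.61 on the log2 scale. The change itself was 1.80 with an offset of 50 and 1.32 without background correction.

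By the root mean square difference of their centred log2 values over the 6 arrays, Defb36 and Aard were the most alike pair among the 7 genes (0.28), and Rhox5 and Rhox8 were 0.44 apart. The 6 pairs among Cst9, Cst12, Defb36 and Aard lay 0.28 to 0.77 apart and the 3 pairs among Rhox5, Rhox8 and Trf 0.44 to 0.62 apart, while the 12 pairs across lay 1.07 to 1.80 apart. This grouping was made from the values themselves and is a description. Groups that did not overlap were found for 5 of 7 genes in POF against WT, 5 of 7 in SSCTR against WT and 7 of 7 in SSCTR against POF, beside 54.9%, 47.9% and 55.3% of all features.

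**Figure D3:**
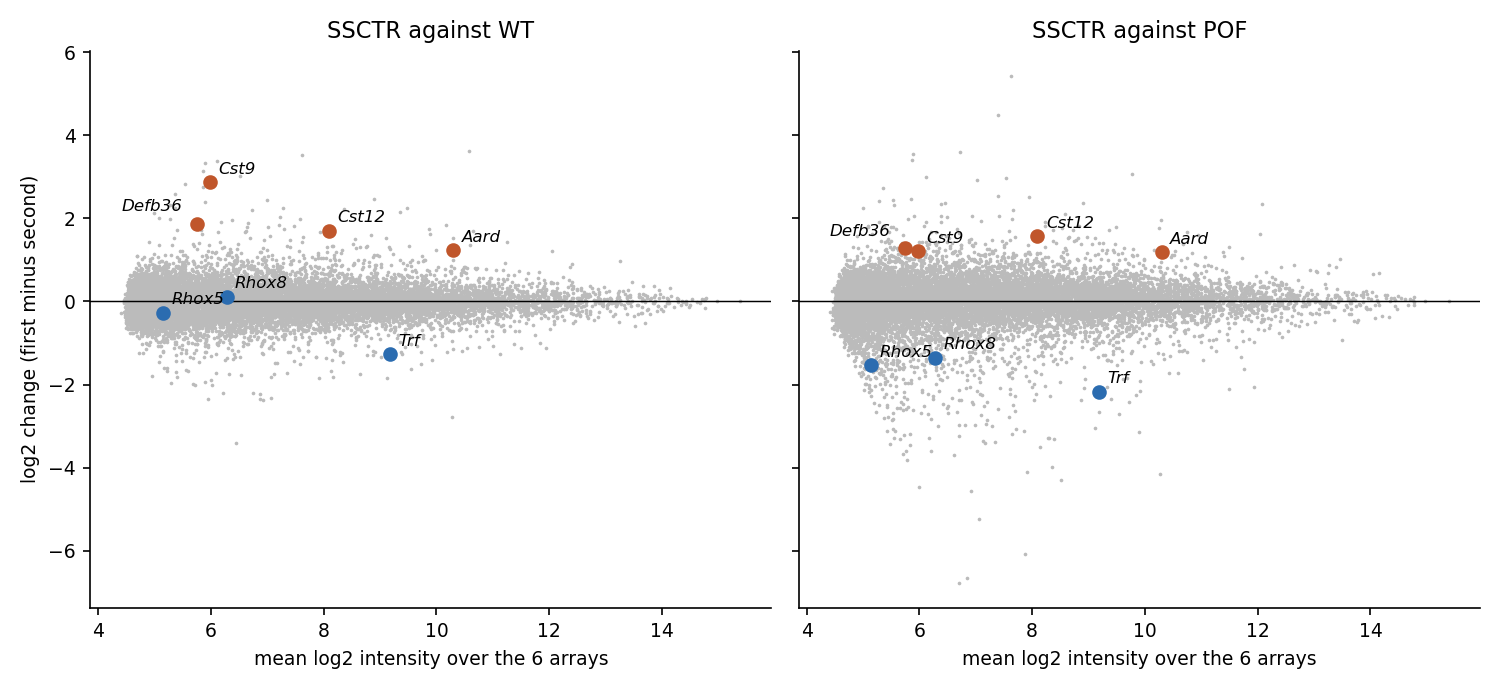
Log2 change (vertical axis) against the mean log2 intensity over the 6 arrays (horizontal axis) of all 13872 features in grey, for SSCTR against WT on the left and SSCTR against POF on the right, with the 7 genes in colour. Cst9 at 2.87 lies near the upper edge on the left, and Trf lies below the bulk in both plots, at -1.26 and -2.17.

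The 7 genes lie on chromosomes 2 (Cst9, Cst12, Defb36), X (Rhox5, Rhox8), 9 (Trf) and 15 (Aard) in the RefSeq annotation, GRCm38.p6, and 5 of them sit in clusters of their own families. Cst12 and Cst9 have Cst8 and Cst13 between them, and neither of these entered the fit. Cstdc1 before Cst12 was at 0.09, Cstdc2 after Cst9 at 0.20 and Cst3, a widely made cystatin beyond it, at -0.09 in SSCTR against WT, none past the threshold (adjusted p = 0.843, 0.737 and 0.889). Rhox5 and Rhox8 have Rhox6 and Rhox7a between them, which did not enter the fit either. Defb36 has Defb45 and then Defb19 on one side. Defb19, another beta-defensin, was 1.02 higher on the log2 scale in POF than in WT (adjusted p = 0.00656), where Defb36 was at 0.59. In SSCTR against POF Defb19 was at -1.35 (adjusted p = 0.00144). There the brighter Defb36 probe went the other way, at 1.28, and the second Defb36 probe was at -0.10.

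Promoter sequences were available for 4 of the 7 genes. They are shown because 3 rose in SSCTR over both other groups (Cst9, Cst12 and, on its brighter probe only, Defb36) and 1 rose in POF over both (Rhox5). Each is a RefSeq window (GRCm38.p6, plus strand) of 250 bases before to 50 bases after the annotated start, at chr2:148834897-148835196 for Cst9, chr2:148789115-148789414 for Cst12, chr2:152604077-152604376 for Defb36 and chrX:37754358-37754657 for Rhox5. Capitals mark matches, on either strand, to AGATAA (the motif of GATA factors), AACAAT (of SOX factors), AAGGTCA (of the gonadal receptor NR5A1) or AGAACA (of the androgen receptor, which binds a pair of such sites).
Cst9: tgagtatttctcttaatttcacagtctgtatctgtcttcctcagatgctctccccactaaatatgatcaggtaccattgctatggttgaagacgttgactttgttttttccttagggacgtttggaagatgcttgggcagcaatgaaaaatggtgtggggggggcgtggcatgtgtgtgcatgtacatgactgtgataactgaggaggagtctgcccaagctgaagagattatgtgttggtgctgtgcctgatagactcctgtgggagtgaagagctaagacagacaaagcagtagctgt
Cst12: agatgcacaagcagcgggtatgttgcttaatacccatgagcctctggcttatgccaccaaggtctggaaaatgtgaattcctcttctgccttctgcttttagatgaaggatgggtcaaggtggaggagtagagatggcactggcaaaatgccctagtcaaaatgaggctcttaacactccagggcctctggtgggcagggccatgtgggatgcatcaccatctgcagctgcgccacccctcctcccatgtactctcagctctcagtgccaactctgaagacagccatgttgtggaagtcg
Defb36: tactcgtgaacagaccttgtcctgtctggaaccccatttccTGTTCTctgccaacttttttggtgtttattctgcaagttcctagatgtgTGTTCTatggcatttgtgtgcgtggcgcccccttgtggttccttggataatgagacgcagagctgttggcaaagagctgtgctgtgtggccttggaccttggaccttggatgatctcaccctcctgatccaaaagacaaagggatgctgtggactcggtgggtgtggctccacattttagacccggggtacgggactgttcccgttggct
Rhox5: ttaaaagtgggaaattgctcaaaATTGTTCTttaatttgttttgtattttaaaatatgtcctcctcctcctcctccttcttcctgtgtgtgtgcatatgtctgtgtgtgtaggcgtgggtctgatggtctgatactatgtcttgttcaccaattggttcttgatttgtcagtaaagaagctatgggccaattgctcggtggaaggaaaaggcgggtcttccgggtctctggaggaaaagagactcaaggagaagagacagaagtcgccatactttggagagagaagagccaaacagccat
The Cst9 and Cst12 windows held none of these 4 exact strings, which does not speak to other forms of the motifs. The Defb36 window held the androgen receptor motif at 2 places, starting 209 and 160 bases before the start. The Rhox5 window held the SOX motif 227 bases and the androgen receptor motif 225 bases before the start, overlapping each other within the run of capitals. Among 32851 RefSeq promoter windows of this length, 19.0% hold AGAACA, 10.7% AACAAT, 11.2% AGATAA and 4.72% AAGGTCA on either strand. A match of letters is not a binding site, and a window without one shows only that these letters are not in it. Whether these ovaries used the annotated start of each window was not tested.

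The wider families did not follow these 7 genes as a whole. Beside all list counts from here on stand the shares of all features past the threshold. These were 11.9% in POF against WT, 3.31% in SSCTR against WT and 12.6% in SSCTR against POF. Of 16 other cystatin superfamily genes 14 had a probe and 6 entered the fit. Among these 6, Kng1 was higher in SSCTR than in WT, by at least 2.16-fold (above background on 1 of 2 WT arrays), Ahsg was higher in POF than in WT (1.24), and none passed in SSCTR against POF, where the brightest, Cstb, was at -0.22. The median of the 6 was 0.11 in SSCTR against WT and -0.02 in POF against WT. Of 40 other beta-defensins 7 entered. Defb20 was higher in SSCTR (1.13) and in POF (0.83) than in WT, Defb19 was higher in POF, and the 5 others did not pass in any comparison. Of the other Rhox genes listed 7 had a probe and 1 entered, Rhox12, at 0.14 in POF against WT and 0.13 in SSCTR against WT (adjusted p = 0.802 and 0.866). The listed cathepsins, among them proteases that cystatins hold in check, had 2 of 10 higher and 1 lower in POF than in WT. None passed the threshold in SSCTR against WT. Ctsc was higher in POF than in WT by 3.10 on the log2 scale and Ctsh by 1.63. In SSCTR against POF 1 of 10 was higher and 3 were lower, with Ctsl at 1.67 and Ctsc at -3.32.

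Genes that act with transferrin did not share the Trf pattern as a group: of 16 measured, 2 were higher in POF than in WT and 1 was lower in SSCTR than in WT. Tfrc, the transferrin receptor, was at -0.01 in POF against WT and 0.31 in SSCTR against WT (adjusted p = 0.988 and 0.430). Fth1, the heavy chain of the iron store ferritin, was at 0.01 and 0.10 (adjusted p = 0.989 and 0.819). The 1 gene that passed in all 3 comparisons was Ltf, the lactotransferrin of secretions and a relative of Trf, at 4.74 in POF against WT, -1.34 in SSCTR against WT and -6.08 in SSCTR against POF. Heph, an iron oxidase of the cell membrane, was 1.03 higher in POF than in WT on its brightest probe, with other probes at 0.12 to 1.24. Of 9 clusterin receptors and apolipoproteins 3 were higher and 2 lower in POF than in WT, 1 was lower in SSCTR than in WT, and 1 was higher and 4 lower in SSCTR than in POF. Lrp2, a receptor for clusterin, was at least 2.40-fold higher in POF than in WT, where it was above background on neither array (it entered the fit only because of the POF arrays), and Apoa1, an apolipoprotein of plasma, was at -1.81. In SSCTR against POF Lrp2 was at least 2.21-fold lower and Apoa1 was at 1.80.

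Most other genes known from Sertoli cells did not pass the test, as held for most features. Of 16 genes of Sertoli fate and function outside the 8, 10 entered the fit. Of these 10, 1 passed in SSCTR against WT, 1 in POF against WT and 2 in SSCTR against POF. Over all features 3.31%, 11.9% and 12.6% passed in these comparisons, so the counts set these genes apart in neither direction. Sox9, which sets the Sertoli fate in the testis, was above background on all 6 arrays and stood at 0.69 in SSCTR against WT and 0.56 in POF against WT (adjusted p = 0.0856 and 0.0879). Shbg, the gene of the sex hormone carrier, was at -1.16 in POF against WT (adjusted p = 0.00545) and 1.35 higher in SSCTR than in POF. Gdnf, a growth factor for spermatogonial stem cells, was 0.78 higher in SSCTR than in WT (adjusted p = 0.0375), while its second probe went the other way, at -1.19 (adjusted p = 0.0175 in the fit of all probes). Of 11 genes shared by Sertoli and granulosa cells 1 was higher in SSCTR than in WT: Kitl, the KIT ligand, at 1.32, with other probes at 2.53 and -0.61. In POF against WT 1 of the 11 was higher and 2 were lower, Kitl (at least 8.78-fold on its brightest probe, with others at 1.08 and -0.71) and the growth factor receptor Igf1r (-0.90, with others at -1.81 and -0.00). In SSCTR against POF 3 were higher, among them Kitl, at least 21.9-fold on its brightest probe (others at 1.45 and 0.10), and Inhba, an activin subunit, at 0.91. Amh, the anti-Müllerian hormone of both cell types, was above background on none of the 6 arrays. It rests on 1 probe, and whether that probe works was not tested, so absence of Amh RNA does not follow.

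**Figure D4:**
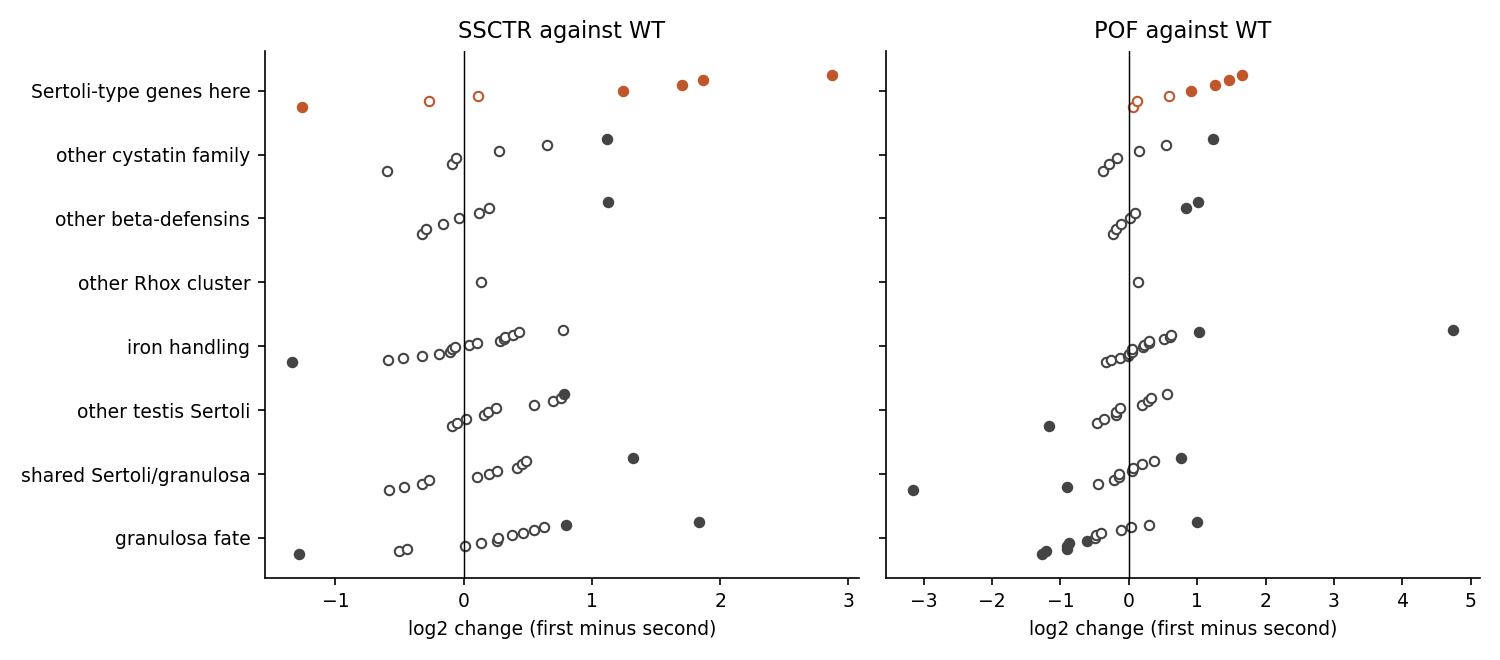
Log2 change (horizontal axis) in SSCTR against WT (left) and POF against WT (right) of the 7 Sertoli-type genes in the top row and of the tested genes of 7 related lists in the rows below; each point is a gene, and filled points have an adjusted p under 0.05. The filled points of the top row reach 2.87 on the left and 1.66 on the right, and most points of the lists are unfilled and near 0.

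Granulosa fate genes also differed between the groups. They had a median log2 change of -0.50 in POF against WT, 0.26 in SSCTR against WT and 0.84 in SSCTR against POF. Their summed intensity was 10863 to 10882 in WT, 14086 to 14151 in SSCTR and 7578 to 7602 in POF, and without the 1 probe of Ctnnb1 it was 10239 to 10304, 11967 to 11985 and 6358 to 6431. Of 13 measured, 2 were higher and 1 lower in SSCTR than in WT, 1 higher and 6 lower in POF than in WT, and 7 higher in SSCTR than in POF. Ctnnb1, the beta-catenin gene, is 1 of the 2 higher in SSCTR and the 1 higher in POF than in WT, at 1.84 and 0.99. Its 3 other probes were at 0.40, -0.51 and -0.26 in SSCTR against WT, and 1 of them was at -1.35 in POF against WT (adjusted p = 0.00300). Cdkn1b, a brake on the cell cycle, was at -1.27 in POF against WT and -1.29 in SSCTR against WT. Irx3, a homeobox gene of granulosa cells, was at -1.22 in POF against WT and 1.68 in SSCTR against POF, and Esr2, the estrogen receptor of granulosa cells, was at 1.24 in SSCTR against POF. In the list of steroid-making cells 2 of 8 were higher in SSCTR than in WT and 4 lower in POF than in WT, and 1 was higher in SSCTR than in POF. The rate-limiting steroid gene Star was at 1.31 in SSCTR against WT and 0.97 in SSCTR against POF, and the steroid enzymes Cyp11a1 and Cyp17a1 were both at -0.83 in POF against WT (other Cyp11a1 probes at 0.24 and -0.02). The median of the 8 was -0.25 in SSCTR against WT. Their summed intensity was 2957 to 3035 in WT, 2923 to 3079 in SSCTR and 1957 to 2198 in POF. Oocyte markers were lower at 10 of 12 in POF than in WT, lower at 1 of 12 in SSCTR than in WT and higher at 12 of 12 in SSCTR than in POF, with a summed intensity of 9455 to 10034 in WT, 7467 to 7613 in SSCTR and 3879 to 4225 in POF. Nobox, an oocyte transcription factor, was at -2.98 in POF against WT, and Gdf9, an oocyte growth factor, at -2.77, and they were at 2.54 and 1.48 in SSCTR against POF. The part of these cell types in the changes of Cst9, Cst12, Defb36 and Aard was not tested.

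Beside the rise of Rhox5, Rhox8 and Trf in POF stood higher signals of macrophage and epithelial markers. Macrophage genes were higher at 6 of 12 in POF than in WT, higher at 1 and lower at 1 in SSCTR than in WT, and lower at 7 of 12 in SSCTR than in POF, with a summed intensity of 4605 to 5000 in WT, 3982 to 4537 in SSCTR and 11243 to 14538 in POF. Gpnmb was at 3.14 and Fcer1g, a chain of immune receptors, at 2.00 in POF against WT, and they were at -2.28 and -3.29 in SSCTR against POF. Surface epithelium genes were higher at 6 of 9 in POF than in WT and lower at 7 of 9 in SSCTR than in POF, 1 of them, Msln, having entered through the POF arrays (1975 to 2148 in WT, 1327 to 1705 in SSCTR and 4819 to 5708 in POF, summed). Among them the uroplakin Upk1b was at 3.15 and the keratin Krt7 at 2.41 in POF against WT, and Upk1b was at -2.98 and the keratin Krt18 at -2.70 in SSCTR against POF. Oviduct genes were higher at 5 of 9 in POF than in WT and lower at 6 of 9 in SSCTR than in POF, and their summed intensity was 654 to 655 in WT, 554 to 585 in SSCTR and 3300 to 3831 in POF. Most of that rise is 1 probe of Ovgp1: without it the sum was 625 to 632 in WT, 527 to 563 in SSCTR and 1016 to 1230 in POF. The counts rest in part on the filter, since Ovgp1, Dynlrb2 and Spag6l entered only because of the POF arrays, and 3 further genes with a probe, Foxj1, Pax8 and Dnah5, were above background on no array. Ovgp1, the gene that defines the oviduct epithelium, was above background on 1 of 2 WT arrays, on neither SSCTR array and on both POF arrays, at least 85.8-fold higher in POF than in WT, while its second probe was at 0.38. It was at least 84.5-fold lower in SSCTR than in POF, and Dynlrb2, a dynein light chain gene, was at least 10.1-fold higher in POF than in WT and at least 8.07-fold lower in SSCTR than in POF. The part of these cells in the changes of Rhox5, Rhox8 and Trf was not tested.

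Of 11 spermatogenic genes with a probe, 8 were above background on none of the 6 arrays. The 3 others entered the fit, and none passed in any comparison. Uchl1, the brightest, was well above background on all 6 arrays, with a mean log2 level of 8.16 in SSCTR and 8.15 in WT, and was at 0.01 in SSCTR against WT (adjusted p = 0.984). Nanos2 was above background on both SSCTR and both WT arrays and at -0.16 in SSCTR against WT (adjusted p = 0.710). The summed intensity of the 3 was 342 to 345 in WT, 315 to 377 in SSCTR and 299 to 359 in POF. Of 5 Y-linked genes with a probe none entered. Eif2s3y, Kdm5d, Usp9y and Sry were above background on none of the 6 arrays, and Uty on 1 POF array.

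**Figure D5:**
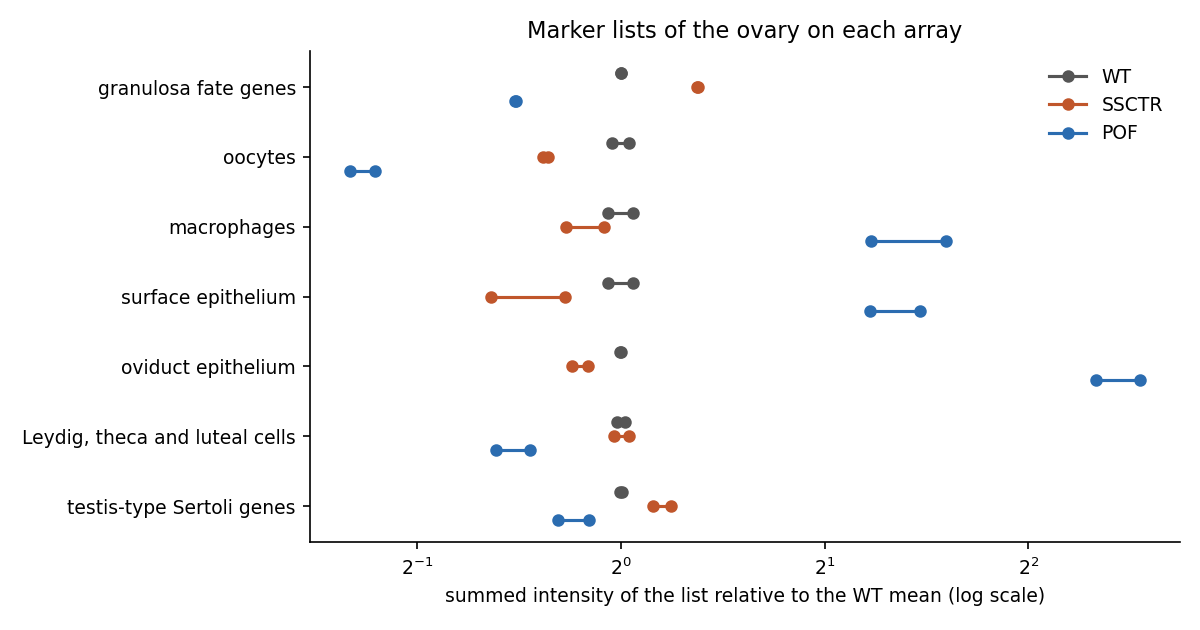
Summed intensity of the tested genes of 7 marker lists on the 2 arrays of each group, relative to the mean of the WT arrays (horizontal axis, log scale); each point is an array and the line joins the 2 arrays of a group. Granulosa fate genes stand highest in SSCTR (14086 to 14151 before scaling), and macrophage, surface and oviduct epithelium genes stand highest in POF, the last mostly through 1 probe of Ovgp1.

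Among all other named genes in the fit, the 2 nearest to each of the 7 by the same measure of likeness gave a view of what else ran with them over the 6 arrays. Nearest to Cst9 were Tnc, the matrix protein tenascin C (0.36 apart), and Fam171b (0.39); Tnc rose 2.26 in SSCTR against WT on its brightest probe, and its 4 other probes were at 0.52 to 2.13. Nearest to Cst12 were Rgs5, a gene of pericytes (0.14), and Acss1, a mitochondrial acetyl-CoA synthetase (0.21), at 1.49 and 1.53 in SSCTR against WT. Nearest to Defb36 were Prkg2, a cyclic GMP-dependent kinase (0.17), and Klhl30 (0.17). Nearest to Aard were H3c13, a histone H3 gene with near-identical copies (0.08), and Cyp51, an enzyme of cholesterol synthesis (0.12), at 1.12 and 1.24 in SSCTR against WT.

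Nearest to Rhox5 were Pnpla1 (0.10) and Cadps2 (0.12), whose second probe was at -0.39 in POF against WT where the brightest was at 1.07. Nearest to Rhox8 were Kcnh1, a potassium channel gene (0.19), and Plvap, a gene of endothelial cells (0.19), at 1.43 and 1.34 in POF against WT. Nearest to Trf were Ccrl2, a receptor that binds the chemoattractant chemerin (0.12), and Ugt1a10 (0.13), which shares exons with its neighbours of the Ugt1a locus, so that its probe may not tell them apart. Both were lower in SSCTR than in POF, by -2.06 and -2.42. These genes were picked by likeness, and nothing about shared control follows from it.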

How the data were processed

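Total RNA of mouse ovaries (3 groups) was measured on Illumina expression arrays. Per the file headers, the deposited table gives for each array an average signal, an intensity on a linear scale, and a detection p-value per probe; from the values, the authors had already brought the 6 arrays of replicates 2 and 3 to 1 distribution (sorted intensities within 0.542%). GenomeStudio is named in the submitters' processing notes; its version, the chip and a genome build are not given in the sources used here. The second deposited table holds normalised intensities of all 9 columns. The column for replicate 1 holds, in every group, the average of the other two multiplied by 1 of a few factors, so 6 arrays were used, n = 2 per group, which limits the precision.

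Probes were named through GEO's platform annotation: of 45281, 34885 carry 1 symbol, 18 several and 10378 none, and 34807 symbols were updated by Entrez identifier. limma 3.58.1 (R 4.3.3) corrected and normalised the intensities with its function neqc (normexp from the detection p-values, offset 16, quantiles, log2). Probes with a detection p under 0.05 on at least 2 of 6 arrays entered (19394), and the entered probe with the highest mean stands for its gene (13872 features, 11053 of them named). A single limma model with eBayes held all 3 groups, tested on simulated data first; every adjusted p is Benjamini-Hochberg over all features. A gene not above background on an array of its dimmer group has a bound, "at least", which sets the brighter group's mean against, per array, the higher of its own value and the lowest value above background. Such a bound holds only under this background correction. The 95% intervals are of single genes, not adjusted. Summed intensities add the normalised values of a list's tested genes on the linear scale.

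The members, lists, tests and alternatives were chosen with earlier results of these data known. Named are all members; from each list the 2 genes past the threshold with the largest change in POF against WT and in SSCTR against POF, or else the brightest; and the 2 genes most like each member. Genomic neighbours are named by position. Further genes (Sox9, Dhh, Cldn11, Aldh1a1, Dmrt1, Gata1, Amh, Kng1, Tfrc, Fth1, Foxl2, Zp3, Ctnnb1, Star, Nanos2, Spag6l, Foxj1, Pax8, Dnah5, Msln and the Y-linked genes), and the list sums without 1 gene, were chosen after their values were seen. Arrays were treated as unpaired. No slide or scan date was given, so batches were not tested. Sequences are from RefSeq (GRCm38.p6), matched by symbol for 4 of the 8 genes.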

Additional observations from a re-analysis of the deposited data

How the results depend on the processing

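The 7 genes gave 4 calls in POF against WT, 5 in SSCTR against WT and 7 in SSCTR against POF, and these counts were the same without background correction, with an offset of 50, with the authors' normalised values and with every probe as a feature. Same-numbered arrays did not vary together between groups (r of their deviations -0.0171, -0.0628 and -0.00259 across features). This shows no shared deviation across features but cannot exclude a pairing, which the labels do not state. With the replicate number as a block the counts were 4, 5 and 7 as well. Named genes past the threshold then numbered 1128, 262 and 1226 against 1312, 347 and 1405. Requiring detection at p under 0.01 everywhere, which removes Cst9, Rhox5 and Defb36, 2, 3 and 4 of the 4 remaining genes were called. With no filter on dim probes they were 4, 4 and 6: Defb36 in POF against WT gained its call (adjusted p = 0.0446), while Cst12 in SSCTR against WT (0.0538), Rhox8 in POF against WT (0.0516) and Rhox8 in SSCTR against POF (0.0645) lost theirs. Leaving out 1 array gave 1 to 4 calls in POF against WT, 2 to 5 in SSCTR against WT and 5 to 7 in SSCTR against POF; named genes past the threshold then numbered 475 to 1222, 87 to 264 and 580 to 1261. Every such fit leaves 1 group with 1 array, assumed to vary like the others. Named genes past the threshold rose to 4011, 2526 and 4028 with all 9 columns, which count computed columns as samples, and in SSCTR against WT to 710 without background correction, 627 with an offset of 50 and 709 with the authors' values. Directions turned only for changes that had not passed: Cst12 in POF against WT (-0.0019 with all 9 columns, -0.23 to 0.49 without 1 array), Aard in POF against WT (-0.092 to 0.22 without 1 array), and, in SSCTR against WT, Rhox8 (-0.35 to 0.57) and Rhox5 (-0.59 to 0.042). The cause was not tested. Of 285 changes of single genes under an alternative, 249 kept direction and call, 28 lost a call, 2 gained one and 6 turned.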
